A study of Drosophila melanogaster with 2 samples.

Results

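The nuclear genes for the subunits of oxidative phosphorylation were described by the binding of Oaz at their start sites. Members were the protein-coding genes on the main chromosome arms whose symbol begins with ND- (complex I), Sdh (complex II), UQCR- (complex III), COX (complex IV) or ATPsyn (complex V). The prefixes gave 88 of 13968 protein-coding genes, of which 40 belonged to complex I, 8 to complex II, 9 to complex III, 16 to complex IV and 15 to complex V. By their symbols, 63 were subunits, 24 were paralogs, named after another gene of the complex with an L added (20 of them after another member), and 1, Sdhaf3, was an assembly factor of complex II. Each gene was called bound if the authors' optimal peak list had a peak whose summit, its highest point, was at most 1000 bp from one of the gene's transcription start sites (TSSs).

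Oxidative phosphorylation takes place in the inner mitochondrial membrane. Complexes I and II pass electrons from NADH and succinate to ubiquinone, complex III passes them on to cytochrome c, and complex IV hands them to oxygen. Complexes I, III and IV pump protons across the membrane, and complex V, the ATP synthase, lets them flow back and makes ATP. A few subunits are encoded in mitochondrial DNA and all others in the nucleus, and the nuclear genes lie scattered over the chromosomes.

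Oaz is a protein with many zinc fingers and the fly relative of a family of vertebrate DNA-binding proteins. Chromatin immunoprecipitation followed by sequencing gave its binding sites in whole embryos, collected over 0 to 24 h, of the strain Oaz-GFP, whose insertion targets Oaz and gives an Oaz-eGFP fusion. The labels name GFP as the target of the antibody in one field and Oaz in another. There was 1 group of 2 biological replicates, so no condition could be compared with another, and a bulk profile of whole embryos cannot show in which cells a site was bound. The optimal list, made from both replicates together, had 2846 peaks and the stricter conservative list 2524, while replicates 1 and 2 alone gave lists of 1833 and 1680. Each peak has a signal, the authors' own value from their peak caller on a scale that is not stated, and the depth of sequencing behind it is unknown here.

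Oaz was bound at 13 of the 88 genes (14.8%, Wilson 95% interval 8.84 to 23.7), close to the 14.0% of all protein-coding genes bound by the same rule (1950 of 13968). As a group, therefore, these genes carried summits about as often as genes at large. The 13 bound genes were ND-ASHI, ND-MWFE, ND-51, ND-24, ND-SGDH, ND-B17 and ND-MNLL of complex I, UQCR-6.4L of complex III, COX5A and COX5B of complex IV, and ATPsynCF6, ATPsynE and ATPsynF of complex V. Complex I had 7 of 40 genes bound (17.5%, 8.75 to 31.9), complex III 1 of 9 (11.1%, 1.99 to 43.5), complex IV 2 of 16 (12.5%, 3.5 to 36.0) and complex V 3 of 15 (20.0%, 7.05 to 45.2). Complex II, succinate dehydrogenase, had 0 of 8, which allows a share of up to 32.4%. The intervals of all 5 complexes overlapped each other and held the share of all genes. They cover counting error over genes only.

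**Figure D1:**
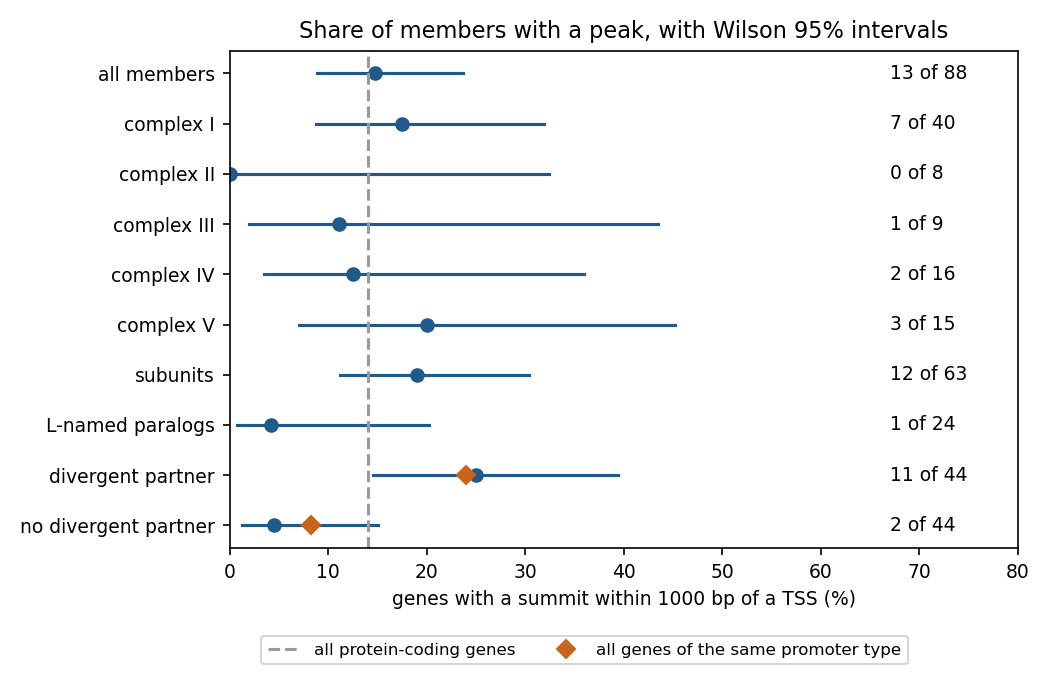
Share of genes bound by the rule above (horizontal axis, percent) for all members, each complex, subunits and L-named paralogs, and members with and without a divergent partner. Points are shares, lines are Wilson 95% intervals, the dashed line is all protein-coding genes (14.0%) and diamonds are all genes of the same promoter type (24.0% and 8.25%), and the intervals of the 5 complexes all hold the dashed line.

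In the conservative list 12 members were bound (13.1% of all genes were), 7 in the list of replicate 1 (10.1% of all genes) and 9 in that of replicate 2 (9.57% of all genes). The peaks of 5 of the 13 bound members overlapped a listed peak in both replicates, against 1078 of all 1950 bound genes (7.72% of all genes). The share was thus lower among the bound members than among all bound genes, which was not tested. The 5 members were ND-ASHI, ND-MWFE, ND-51, ND-24 and COX5A, so 4 of the 5 belonged to complex I. They were also the 5 with the highest signal among the members.

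The sequence under the summit is shown for ND-ASHI, ND-51, ND-24 and COX5A, 4 of the 5 genes whose peak both replicates listed. Each run is 200 bp of the RefSeq Release 6 (dm6) genome around the summit, written 5′ to 3′ along the strand of the named gene. Capitals mark matches, on either strand, to any of the 12 short motifs described further on. ND-ASHI, which encodes an accessory subunit of complex I, is shown at chrX:6679294-6679493, minus strand. ND-51, whose product binds the flavin that takes electrons from NADH, is shown at chr2L:6062747-6062946, minus strand. ND-24, whose product is its iron-sulfur partner, is shown at chrX:17632063-17632262, plus strand. COX5A, which encodes a subunit of cytochrome c oxidase, is shown at chr3R:11819444-11819643, plus strand.
ND-ASHI: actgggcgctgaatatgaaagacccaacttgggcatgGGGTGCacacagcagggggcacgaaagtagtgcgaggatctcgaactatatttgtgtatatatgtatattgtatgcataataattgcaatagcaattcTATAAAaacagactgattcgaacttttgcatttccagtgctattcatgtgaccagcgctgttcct
ND-51: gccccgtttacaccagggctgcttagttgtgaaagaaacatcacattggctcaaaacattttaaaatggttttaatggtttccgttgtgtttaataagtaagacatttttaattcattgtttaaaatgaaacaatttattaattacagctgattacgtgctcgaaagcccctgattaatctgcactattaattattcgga
ND-24: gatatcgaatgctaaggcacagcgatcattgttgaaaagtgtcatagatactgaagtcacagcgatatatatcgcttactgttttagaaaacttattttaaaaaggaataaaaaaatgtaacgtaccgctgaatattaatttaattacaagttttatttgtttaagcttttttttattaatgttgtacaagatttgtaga
COX5A: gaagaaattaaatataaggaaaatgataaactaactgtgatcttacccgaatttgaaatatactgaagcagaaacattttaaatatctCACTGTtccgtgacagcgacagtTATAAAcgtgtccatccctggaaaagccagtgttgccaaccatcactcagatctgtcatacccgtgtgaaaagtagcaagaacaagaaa
The summit is base 101 in the runs of ND-ASHI and ND-51 and base 100 in those of ND-24 and COX5A. A TSS of the gene itself is base 190 in the run of ND-51, base 27 in that of ND-24 and base 156 in that of COX5A, and lies outside the run of ND-ASHI. The run of ND-ASHI holds TATAAA and the reverse complement of GCACCC, and that of COX5A holds TATAAA and the reverse complement of ACAGTG. The runs of ND-51 and ND-24 hold none of the 12 motifs.

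Genes of complex I were grouped by the known positions of their products in the mammalian complex. Of the NADH-oxidising module 2 of 7 genes were bound (Wilson 95% interval 8.22% to 64.1%), of the membrane arm 5 of 17 (13.3% to 53.1%) and of the quinone-binding module 0 of 8 (up to 32.4%). Each interval holds the 14.0% of all genes, so the modules are not told apart from it or from each other. ND-ACP and ND-MLRQ were not placed, and neither was bound. This grouping, like that of complex V, was made after the values were seen. Of the 7 genes for the nuclear core subunits shared with bacteria, ND-51 and ND-24 were bound, while ND-75, ND-49, ND-30, ND-23 and ND-20 were not.

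ND-ASHI (FBgn0029888) had the strongest peak of all members, with a signal of 299.1 in the optimal list. Its signal was 180.3 in replicate 1 and 120.5 in replicate 2, and both replicates listed it. The peak at chrX:6679299-6679450 had its summit 275 bp upstream of the nearest TSS of ND-ASHI and 247 bp upstream of that of Fum1, which encodes fumarase of the citric acid cycle and is transcribed the other way. The peak thus counts for both genes, and the data do not tell which of them, if either, it serves. Among the 1950 bound genes the signal of ND-ASHI took place 260 from the top.

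ND-MWFE (FBgn0085468), another accessory subunit of the membrane arm, came next with a signal of 235.4, from 150.8 in replicate 1 and 92.8 in replicate 2. Its peak at chr2R:13158438-13158559 had its summit 176 bp upstream of ND-MWFE and 45 bp upstream of TppII, a gene for a peptidase. ND-ASHI and ND-MWFE were the only 2 members above 200, the upper quartile of the signals of all bound genes.

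ND-51 (FBgn0031771) and ND-24 (FBgn0030853), the core subunits at the site of NADH oxidation, had middling signals that were alike in both replicates. The signal at ND-51 was 144.9, with 70.8 in replicate 1 and 76.6 in replicate 2, and its summit lay 89 bp upstream of the TSS in a peak at chr2L:6062681-6063010. The signal at ND-24 was 124.8, with 69.7 in replicate 1 and 60.7 in replicate 2, and its summit lay 73 bp downstream of the TSS in a peak at chrX:17631997-17632326. Both genes share their promoter region with a gene on the other strand. ND-51 lies 232 bp from CG13994, and ND-24 lies 42 bp from corolla, which encodes a protein of the meiotic synaptonemal complex.

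The other 3 bound genes of complex I encode accessory subunits of the membrane arm, and each was listed in 1 replicate only. ND-SGDH (FBgn0011455) had a signal of 105.6 at chr3L:12138529-12138858, with 57.6 in replicate 2, where it was listed, and 46.6 in replicate 1, where it stood only in the longer ranked list of peaks past no threshold. ND-B17 (FBgn0001989) had a signal of 95.3 at chr2L:15750995-15751324, with 50.9 in replicate 2 and no overlapping ranked peak in replicate 1. It was not in the conservative list either, and no other gene had a TSS in reach of its summit, 82 bp upstream. ND-MNLL (FBgn0029971) had a signal of 77.2 at chrX:7893768-7894097, with 41.1 in replicate 1, where it was listed, and 30.0 in the ranked list of replicate 2. The annotation gives the same start sites to CG45089, so these 2 genes cannot be told apart at this summit.

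The bound members of complex IV were COX5A and COX5B, both subunits on the matrix side of cytochrome c oxidase. Their peaks differed in how well they were found again. COX5A (FBgn0019624) had a signal of 112.1 at chr3R:11819378-11819707, with 60.2 in replicate 1 and 59.7 in replicate 2, both listed. Its summit lay 56 bp upstream of the nearer of its 2 TSSs, the shortest distance of the 13 bound members. The other TSS, at the gene start, lay 240 bp upstream of that one. The summit was 123 bp from the nearest TSS of glo, a gene for an RNA-binding protein. COX5B (FBgn0031830) had a signal of 61.4 at chr2L:6557358-6557687, with 43.8 in replicate 1, where it was listed, and 15.1 in the ranked list of replicate 2. Its summit lay 277 bp upstream of COX5B but 21 bp from the TSS of IFT52, a gene for ciliary transport, and the peak was not in the conservative list.

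In complex V the 3 bound members encode parts of the membrane sector or the peripheral stalk. Of such members 3 of 8 were bound (13.7% to 69.4%), and of members for the catalytic head and central stalk 0 of 3 (up to 56.1%). Both intervals hold the 14.0% of all genes. The count for the head and central stalk leaves out blw, the alpha subunit, and the gene for the epsilon subunit, whose symbols lack the prefix. Of these, blw was bound with a signal of 152.7, listed in both replicates, and the state of the epsilon gene is not given here. No peak of a complex V member was listed in both replicates. ATPsynCF6 (FBgn0016119), coupling factor 6 of the peripheral stalk, had a signal of 99.4 at chr3R:23355985-23356314, with 43.6 in replicate 2, where it was listed, and 62.2 in the ranked list of replicate 1. ATPsynE (FBgn0038224), subunit e, had a signal of 92.0 at chr3R:14327707-14328036, with 51.3 in replicate 2, where it was listed, and 37.1 in the ranked list of replicate 1. That summit lay past the end of ATPsynE, 804 bp downstream of its nearest TSS. It was only 179 bp upstream of the TSS of spn-B, a gene for meiotic DNA repair. A weaker peak of ATPsynE, with a signal of 65.5, had its summit 58 bp downstream of a TSS. ATPsynF (FBgn0035032), subunit f, had the lowest signal of the bound members, 59.5 at chr2R:24599802-24600131, with 39.4 and 28.4 in the ranked lists of replicates 1 and 2 and a place past the threshold in neither.

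Complex III had 1 bound member, UQCR-6.4L (FBgn0262842), a paralog of the small subunit gene UQCR-6.4. Of the 6 subunit genes of complex III with the prefix, 0 were bound. The signal was 98.5 at chr3L:16567566-16567895, with 58.2 in the ranked list of replicate 1 and 43.5 in replicate 2, where the peak was listed. The summit lay past the end of the gene, 981 bp downstream of its only TSS, so UQCR-6.4L was the member just inside the limit of 1000 bp. In replicate 2 the summit of the overlapping peak lay beyond that limit. Just outside were ND-39 at 1564 bp (signal 98.9), ND-B22 at 1906 bp (signal 115.6) and COX5BL at 1908 bp (signal 61.4).

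**Figure D2:**
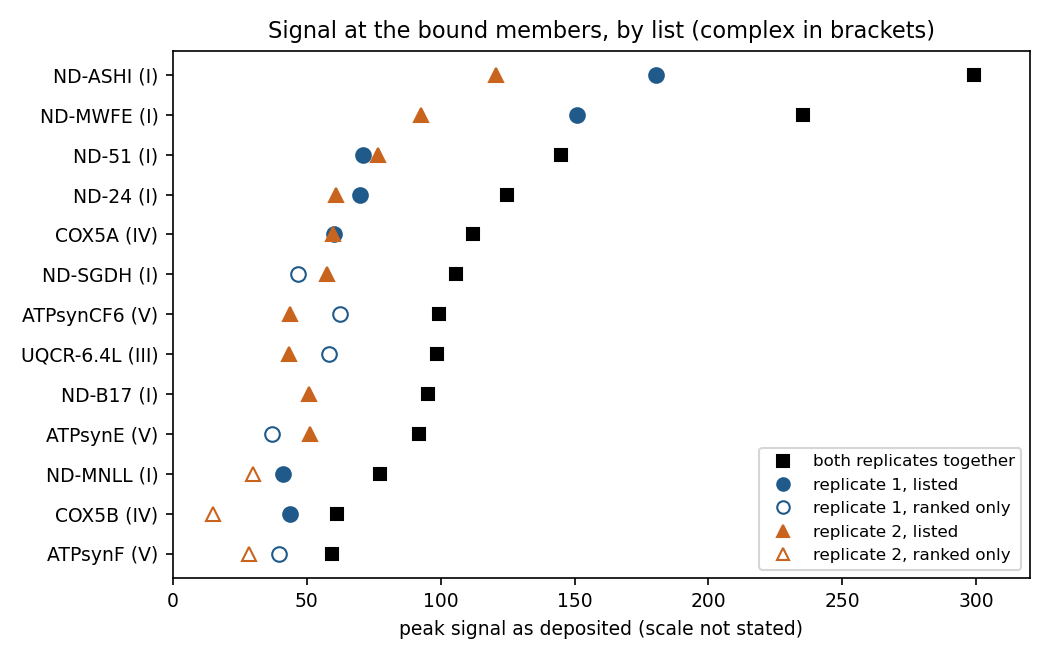
Deposited peak signal (horizontal axis, scale not stated) at the 13 bound members in the list of both replicates together (squares) and in replicates 1 (circles) and 2 (triangles), with open marks for peaks that stand only in a ranked list. ND-ASHI and ND-MWFE lie apart at 299.1 and 235.4, and ND-B17 has no mark for replicate 1.

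The signals of the bound members lay on the low side of those of all bound genes. Their median was 99.4 (range 59.5 to 299.1, n = 13), against 125 over all 1950 bound genes, and 3 of the 13 exceeded that median. Replicate 1 gave the higher signal at 9 of the 12 members with a peak in both, as it did at 81.7% of all bound genes. The signals of a replicate and of both together are not on one scale, so the comparison holds between genes within a list.

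Most members outside the optimal list still had a weak peak in the ranked list, which holds 150275 peaks, most of them past no threshold. A ranked summit within 1000 bp was present at 76 of 88 members (86.4%), near the 90.5% of all genes. The strongest ranked peak of the 63 unbound members that had one had a median signal of 33.3 (highest 97.4, n = 63), against 33.6 over all 10693 unbound genes with one. The medians were 35.1 in complex I, 29.1 in complex II, 31.0 in complex III, 40.7 in complex IV and 24.4 in complex V. Those of complexes I to IV lay between the quartiles of all unbound genes, 25.6 and 42.6, and that of complex V lay below them. The unbound members were thus ranked with the bulk of weak peaks.

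In each complex 1 unbound gene had the strongest such peak. ND-42, an accessory subunit of the membrane arm, had 70.7 in the optimal ranked list, with 45.5 in replicate 1 and 30.9 in replicate 2, and was the only member in the conservative list that the optimal list lacks. SdhC, a membrane anchor of succinate dehydrogenase, had 43.9, with 23.0 and 29.2 in replicates 1 and 2. UQCR-14, a subunit on the matrix side of complex III, had 53.4, with 33.4 and 19.8. COX7AL2, a paralog of COX7A, had 97.4, with 56.0 and 44.2, and ATPsynbetaL, a paralog of the catalytic beta subunit, had 44.4, with 33.3 and 17.5. The values of COX7AL2 and ND-42 lie within the range of the bound members, and those of UQCR-14, SdhC and ATPsynbetaL lie below all of them.

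The 12 members without a ranked summit in reach in the optimal ranked list were all subunits and no paralogs. They included SdhA, the catalytic subunit of succinate dehydrogenase, ATPsynbeta, the catalytic subunit of ATP synthase, and the core complex I subunits ND-20 and ND-49. The others were ATPsynG, COX8, ND-13B, ND-B14.7, ND-B15, ND-MLRQ, UQCR-11 and UQCR-Q. Of the 12, 7 had a ranked summit in the list of replicate 2, and 1 of these, ND-B15, also in that of replicate 1. ND-49 and ATPsynbeta are the 2 members on chromosome 4, where 2 of all 80 genes were bound (2.5%). All 24 paralogs had a ranked summit, against 51 of 63 subunits, although 1 of 24 paralogs was bound (4.17%, 0.739 to 20.2) and 12 of 63 subunits (19.0%, 11.2 to 30.4).

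**Figure D3:**
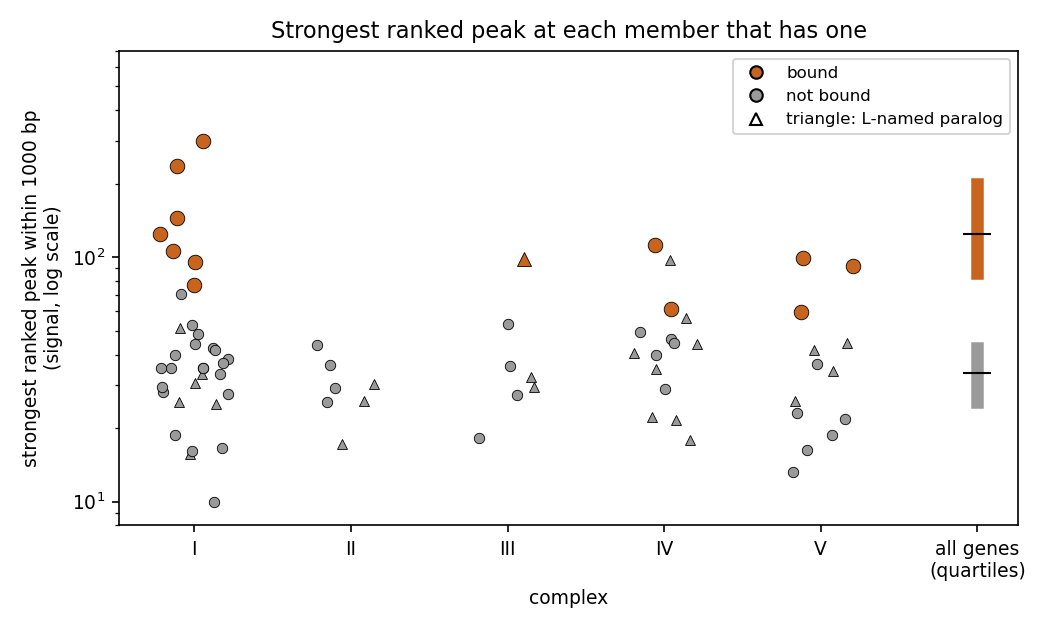
Signal of the strongest ranked peak within 1000 bp of a TSS (vertical axis, log scale) for the 76 members that have one, by complex, with bound members in colour, others in grey and triangles for L-named paralogs. Bars at the right span the quartiles of all bound genes (86.2 to 200) and all unbound genes (25.6 to 42.6) with the median as a line, and COX7AL2, unbound at 97.4, stands among the bound members.

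Nearly all bound members lay in divergent pairs, where a second gene starts nearby on the other strand and is transcribed away from the member. A partner TSS within 1000 bp was present at 11 of 13 bound members (84.6%), at 44 of all 88 members, at 62.3% of all bound genes and at 36.2% of all genes. Members with a partner were bound at 11 of 44 (25%, 14.6 to 39.4), against 24.0% of all genes with a partner. Members without a partner were bound at 2 of 44 (4.55%, 1.26 to 15.1), against 8.25% of all genes without one. The share among the members is thus close to that of genes of the same promoter type in divergent pairs, and the interval of the others holds their background.

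Promoter type and gene class moved together. Of the 63 subunits, 40 had a divergent partner and 11 of these were bound (27.5%, 16.1 to 42.8), while 1 of the 23 without a partner was (4.35%, 0.772 to 21.0). Only 4 of the 24 paralogs had a partner, and 0 of these 4 were bound, against 1 of the other 20 paralogs. The part of the partner in the difference between subunits and paralogs was not tested.

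Summits lay mostly in the gap between the 2 start sites. The summit fell between divergent TSSs at 9 of the 13, upstream of the member's nearest TSS at 10 and downstream at 3. At ND-24 it fell between them only by the gene's other TSS, 232 bp downstream of the nearest one. The share of all bound genes with a summit so placed is not given here, so the 9 are no trait particular to the members. Its distance had a median of 135 bp (range 56 to 981), and 8 of 13 lay within 150 bp and 11 within 300 bp. The TSS nearest the summit was that of the member at 7 genes and that of another gene at 6, namely ND-ASHI, ND-MWFE, ATPsynE, ND-MNLL, COX5B and ATPsynF. The smallest gap between a bound member and its partner ran from 20 bp (COX5A and glo) to 298 bp (COX5B and IFT52). Partners included Sec13, a coat and nuclear pore protein gene 214 bp from ATPsynCF6, and p115, a Golgi tether gene 233 bp from ND-MNLL.

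**Figure D4:**
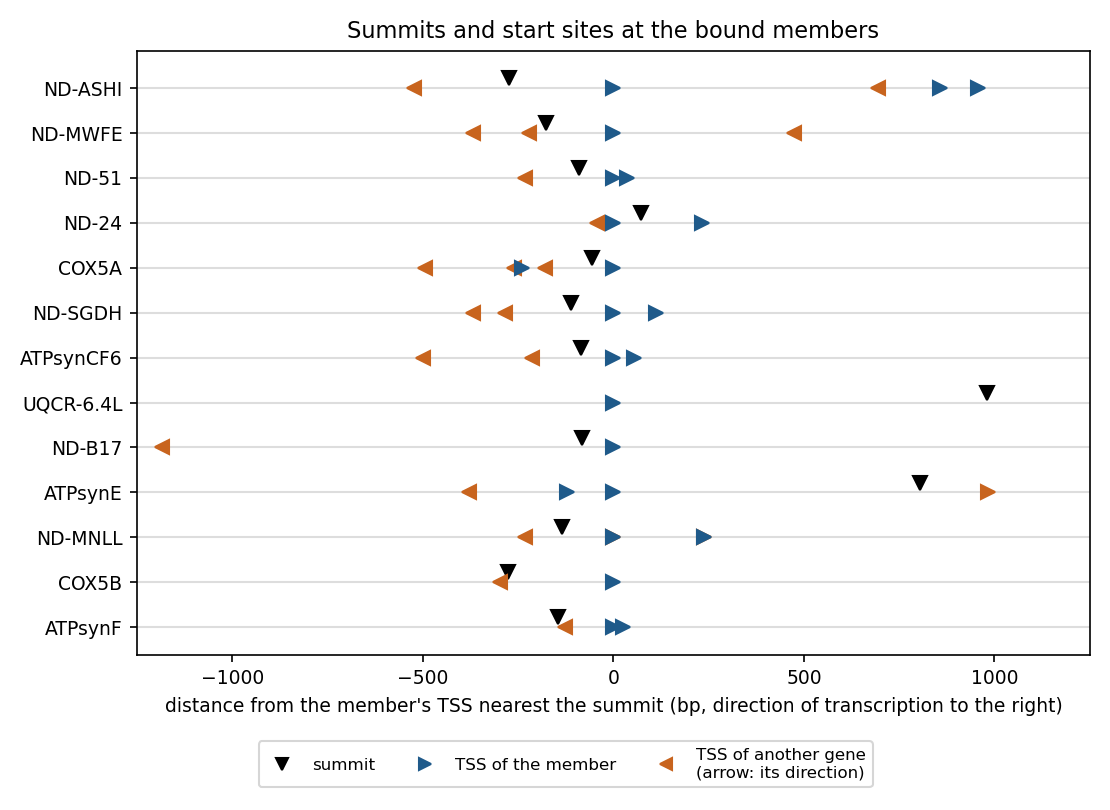
Position of the summit and of start sites at each bound member, in bp from the member's TSS nearest the summit, with the direction of transcription to the right and arrows pointing along each gene. Black marks are summits, blue the member's own TSSs and orange those of other genes, and 9 of the 13 summits lie between divergent start sites. ND-MNLL shares its start sites with CG45089, which its own marks cover.

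Bound members stood on each large arm. By arm, 3 of 16 members were bound on 2L, 2 of 17 on 2R, 2 of 20 on 3L, 3 of 20 on 3R, 3 of 13 on X and 0 of 2 on chromosome 4. For all genes the share was between 13.5% (X) and 14.9% (3L) on the large arms. The 13 members had 13 distinct peaks, so none of the counts rests on a peak shared by members.

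The sequence of the promoters was searched, on both strands, for 12 short motifs in the 300 bp from 250 bp before to 50 bp after the gene start. The site of M1BP, a factor of housekeeping promoters, GGTCACACT, was in 15 of 88 member promoters (17.0%), against 6.04% of all genes. Motif 6 of the core promoter, searched as GGTATTTTT, was in 7.95% of members against 2.78% of all genes. TATCGATA, the DNA replication-related element (DRE), was in 10.2% against 9.36%, and its core ATCGAT, which lies within it, in 29.5% against 23.3%. TATAAA was in 55.7% against 45.8%, and the E-box CACGTG in 4.55% against 4.2%. In windows of 500 bp to either side of the gene start the E-box was in 7.95% against 12.9%, so its order turned.

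Sites of known regulators of respiratory genes were also searched. The NRF-1 site GCGCATGC was in 0 member promoters (1.05% of all genes), the Ets core CCGGAAG in 0 (1.09%) and the nuclear respiratory gene (NRG) element in 0 (0.172%). In windows of 500 bp to either side the NRG element was in 6 members (6.82%), against 0.515% of all genes, so its order turned from below to above that of all genes. The GAGA repeat GAGAGAG was in 1.14% against 5.86%, and GCACCC, the core described for vertebrate relatives of Oaz, in 3.41% against 5.32%. A match describes the letters in this window only, and no match says nothing about the factor.

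The shares of subunit and paralog promoters with a match lay in either order, depending on the motif. M1BP sites were in 14 of 63 subunit promoters (22.2%) and 1 of 24 paralog promoters (4.17%), motif 6 in 7 and 0, and TATCGATA in 9 and 0. The E-box was in 2 of 63 subunits (3.17%) and 2 of 24 paralogs (8.33%), GAGAGAG in 0 and 1, and ATCGAT in 20 and 6. ACAGTG, the 6-mer frequent at Oaz summits in these data, was also in 14 of 63 and 1 of 24. Among bound members, ACAGTG was in 5 of 13 promoters (38.5%), namely ND-ASHI, ND-51, ND-B17, COX5B and ATPsynCF6. Among unbound members it was in 10 of 75 (13.3%), among all bound genes in 22.2% and among all genes in 13.9%. Since earlier results of these data chose this 6-mer, its share is no independent sign.

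M1BP sites were in 4 of 13 bound promoters (30.8%) and 11 of 75 unbound ones (14.7%), against 8.51% of all bound genes. The 4 were COX5A, COX5B, ND-B17 and ND-MWFE, and all but ND-MWFE also held motif 6. At COX5A this promoter is that of the gene start, not of the TSS nearest the summit. In ND-MNLL the promoter held TATCGATA. Near the summit itself, in windows of 201 bp, ACAGTG was in 3 of 13 bound members, against 22.2% of all 2772 summits on the arms. It lay 8 bp from the summit at COX5A, 9 bp at ND-B17 and 56 bp at COX5B. TATAAA was in 7 of 13 of these windows, against 35.3% of all, and the M1BP site in 1, that of ND-B17, against 1.01%.

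**Figure D5:**
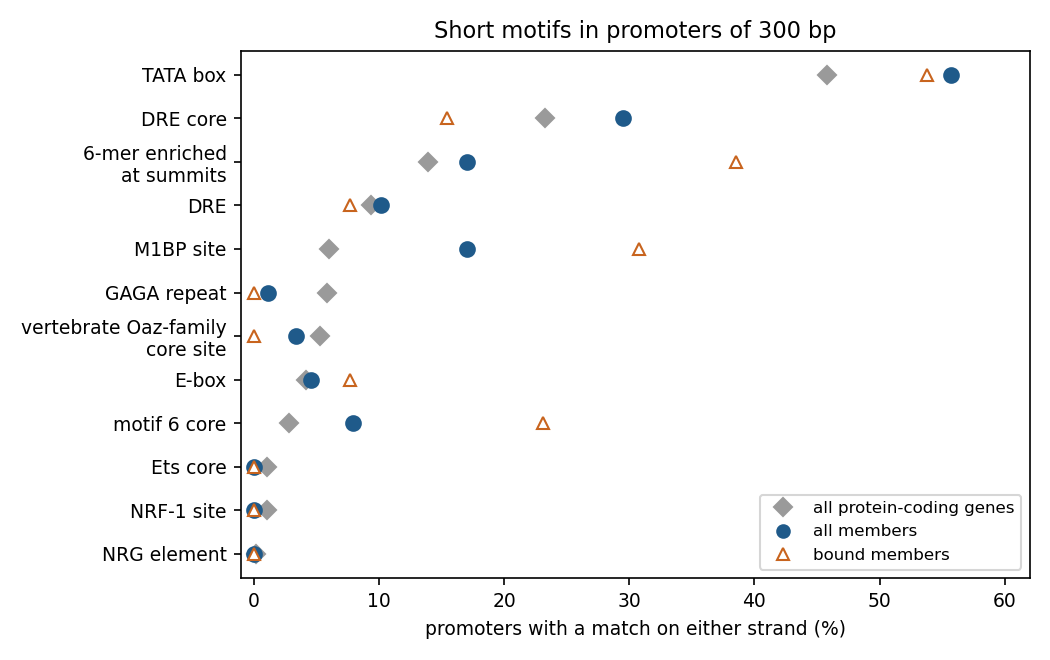
Share of promoters of 300 bp with a match on either strand (horizontal axis, percent) for each of 12 motifs, in all protein-coding genes (diamonds), all 88 members (circles) and the 13 bound members (triangles). The M1BP site, motif 6 and the 6-mer ACAGTG lie farther right in bound members (30.8%, 23.1% and 38.5%) than in all genes (6.04%, 2.78% and 13.9%), on 4, 3 and 5 of 13 promoters. Among all bound genes, not drawn, these shares were 8.51%, 3.69% and 22.2%. TATAAA and the E-box also lie farther right. All other motifs lie farther left, such as the DRE core (15.4% against 23.3%) and the GAGA repeat (0% against 5.86%).

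Some genes of the respiratory chain have symbols without the prefixes. Of 9 such genes in a chosen list 4 were bound (44.4%, 18.9 to 73.3), against 14.0% of all genes, which lies below the interval. Both replicates listed all 4, where 7.72% of all genes had a peak listed in both. They were the cytochrome c genes Cyt-c-d (signal 343.0, 190.5 in replicate 1 and 158.5 in replicate 2) and Cyt-c-p (283.9, 155.5 and 132.7), the complex IV gene levy (178.3, 105.7 and 73.9) and blw, the alpha subunit of ATP synthase (152.7, 88.9 and 64.0). Each of these signals exceeds those of at least 11 of the 13 bound members. The peaks of Cyt-c-d, levy and blw were also in reach of CG31808, wmd and CG42260, in that order. The summit at Cyt-c-p lay 940 bp downstream of its TSS. The list was chosen with earlier results known, and its difference from the members was not tested. It does not hold all such genes, and Cyt-c1L, outside it, was bound too. The peaks of Cyt-c-d and Cyt-c-p start at 16716242 and 16720823 on arm 2L, so the interval counts neighbouring genes as independent. With the 9 listed genes added to the members, 17 of 97 were bound (17.5%, 11.2 to 26.3).

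Assembly factors and enzymes that feed the chain were bound at shares whose intervals held that of all genes. Of 13 listed assembly factors 2 were bound (15.4%, 4.33 to 42.2), CIA30 of complex I with a signal of 1211.7 and Ttc19 of complex III with 151.0. The list does not hold every assembly factor, and Coa8, outside it, was bound too. The peaks of CIA30 and Ttc19 were also in reach of CG7601 and Acn. Of 17 genes of the citric acid cycle and pyruvate dehydrogenase 4 were bound (23.5%, 9.56 to 47.3), namely Idh3g (330.0), Fum1 (299.1, the peak it shares with ND-ASHI), Pdhb (118.7) and Ogdh (92.5). The peaks of Idh3g, Pdhb and Ogdh were also in reach of CG4743, alpha-Man-Ib and Cpr73D, in that order.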

How the data were processed

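Peak lists deposited by the authors were used, per the description deposited with the samples, on dm6: an optimal and a conservative list made from both replicates and a control, and a list for each replicate, each with a longer ranked list. Which aligner and which peak caller made them is not given in the sources used here. Each deposited peak has a signal on an unstated scale, and the authors' ranked lists also give the −log10 of the global irreproducible discovery rate (IDR), for which the threshold of listing was 0.01. The 8 per-library columns of the ranked lists were not used, and read depth is unknown. Chromatin was sonicated to 200 to 800 bp, per the labels.

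Genes and 19630 TSSs came from Ensembl release 115, and sequence from RefSeq Release 6, where 0 peaks passed an arm end. Coordinates are 1-based. Replicate peaks were matched to the optimal peak by an overlap of 1 bp. No test was made, since there was 1 group and the members and lists were chosen with earlier results of these data known. Shares have Wilson 95% intervals. Named were all bound members, the unbound member with the strongest ranked peak in each complex, the members nearest to the limit of 1000 bp, and up to 4 bound genes of each of 6 further lists, in which 74 of 83 symbols were matched. Summit windows are printed instead of the promoters of the naming rule, a choice made after positions were seen, because most of these summits lie outside those promoters. Alternatives changed the list, replicate, distance, IDR, assignment of peaks, members and motif window. The counting was tested on simulated data. Software was Python 3.11.15, numpy 2.4.6, pandas 2.3.3, scipy 1.17.1 and matplotlib 3.10.9.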

Additional observations from a re-analysis of the deposited data

Results flagged for a closer look

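COX7AL2, the paralog of COX7A, had a peak of signal 97.4 in the ranked list, 605 bp upstream of its TSS, with a −log10 IDR of 2.81. That value passes the threshold of the optimal list, yet the list lacks the peak, so the gene does not count as bound. Of 3001 ranked peaks past the threshold, 155 were missing from the list in this way, and the reason was not tested.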

How the results depend on the processing

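Of the alternative values, 59 stayed within 1.5 times the reported value (shares of promoters, within its interval) and 27 did not. Bound members numbered 13, and 7 to 9 with either replicate alone, 5 at an IDR of 0.001 and 8 when a peak counted only for the nearest TSS. Their median signal, 99.4, was 59.7 to 69.7 with a replicate left out, on another scale. All genes fell from 14.0% to 9.07% within 250 bp and 8.04% at the stricter IDR, where members stood at 5.68%. At that IDR complex I kept 4 genes, complex IV 1 and complexes III and V 0, and complex I had 4 and complex IV 1 by the nearest TSS. With 1 replicate left out, complex III had 0 in either case, complex IV 1 to 2 and complex V 0 to 2. Without replicate 2, complex V had none. Complex III had 0 within 500 or 250 bp. Complex IV had 1 in the conservative list, 1 within 250 bp and 4 within 2000 bp, where complex II had 1, SdhC. In windows of 500 bp to either side, member shares were 50% for ATCGAT, 6.82% for the NRG element, 78.4% for TATAAA, 29.5% for ACAGTG and 21.6% for GCACCC, against 40.4%, 0.515%, 74.5%, 36.6% and 23.4% of all genes. ACAGTG thus turned from above to below the share of all genes, as did CACGTG (7.95% against 12.9%), and the NRG element from below to above. No paired analysis was possible because there was 1 group. The number of genes per complex limits each share, and the depth is unknown.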

Other observations

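Further lists cover genes around the respiratory chain. Of 10 regulators 3 were bound (30.0%, Wilson 95% interval 10.8 to 60.3), all listed in both replicates. They were ERR, the estrogen-related receptor and a regulator of metabolic genes (signal 180.7), Dref, which binds the DNA replication-related element (146.7), and yki, the Hippo pathway coactivator (120.3). Their peaks were also in reach of Atg18a, RpL13 and Gpat4, in that order, so they cannot be given to the regulators alone. Of 11 genes for the expression and upkeep of mitochondrial DNA 1 was bound (9.09%, 1.62 to 37.7), mtSSB, a single-strand binding protein gene, with a signal of 130.6. Of 14 listed genes for carriers and protein import 0 were bound, which allows up to 21.5%. The list is a choice of genes and not the whole class. Carrier genes outside it, such as Dic1 and Ucp4A, were bound. Against the 14.0% of all genes, each interval holds the background.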
